A study of Mus musculus with 4 samples.

Results

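The Hox genes encode homeodomain transcription factors and lie in 4 clusters, HoxA, HoxB, HoxC and HoxD. They were taken as every row of the deposited count table whose name is Hoxa, Hoxb, Hoxc or Hoxd followed by a number alone, which gave 38 of 41457 rows: 11 in HoxA, 10 in HoxB, 9 in HoxC and 8 in HoxD. Poly(A)-selected RNA was sequenced from mouse tumour cells of the colon, cultured in RPMI medium. The samples were 3 lines labelled as ENU mutants (M8, M32 and M83) and the control tumour cells, whose label names no mutagen. ENU, short for N-ethyl-N-nitrosourea, alkylates DNA and is used to induce point mutations across the genome. All 4 samples share the tissue, the medium and the library kits, while the sources used here do not give the cell line's name, the mutated sites, or the strain, sex and age of the animal of origin. Each of the 4 samples is 1 column of the table, called a library here, although the series speaks of triplicates, and whether a column pools repeats is not stated.

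Within each cluster the genes are numbered by paralog group, from the low numbers at the 3′ end to the high numbers at the 5′ end. During development, low-numbered genes are switched on earlier and further towards the head, high-numbered genes later and further towards the tail, and the pattern of active Hox genes often persists in cultured cells as a record of where in the body they came from. Hox proteins bind DNA together with cofactors of the TALE family (Pbx, Meis and Prep), their clusters are silenced by Polycomb complexes and kept active by Trithorax complexes, and the 3′ genes respond to retinoic acid through its receptors. In the gut, Hox genes pattern the mesenchyme and the nerves as well as the epithelium, and the group 13 genes mark the hindgut.

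The libraries held 28879954 counts (M8), 27312207 (M32), 28011773 (M83) and 25818148 (control), so that a count of 0 allows up to 0.105, 0.111, 0.104 and 0.118 CPM (counts divided by the TMM-corrected library total), a limit set at 3 counts that covers counting error only. Of 14 markers of colonic epithelium, Epcam, Cdx2, Muc2 and Car1 had no count in any library. Cdh1 had 2, 0, 0 and 4 counts and Cdx1 had 0, 0, 0 and 2 counts (M8, M32, M83 and control). These markers of the labelled tissue's epithelium were thus at or near 0. The summed level of all 14 was 180 CPM in M8, 73.8 in M32, 160 in M83 and 104 in control. It was carried mainly by the keratins Krt18 (63.0, 36.6, 31.5 and 27.8 CPM) and Krt20 (116, 37.2, 127 and 75.0 CPM, same order). The 10 mesenchyme markers were all counted, at 8660 CPM summed in M8, 10205 in M32, 9564 in M83 and 8357 in control. Leukocyte markers summed to 0.81, 0.92, 1.38 and 1.92 CPM and endothelial markers to 0.91, 0.66, 1.14 and 0.35 CPM in the same order. In bulk RNA, fewer cells of a type and less RNA per cell cannot be told apart.

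The sequences next to the sharpest steps in the Hox pattern are shown first. They are the 250 bases upstream of RefSeq transcript starts in GRCm38.p6, printed 5′ to 3′ on the gene's strand, for the neighbours Hoxa10 and Hoxa11, for the neighbours Hoxd8 and Hoxd9, and for Hoxc4. In each pair the first gene was transcribed and the second had at most 2 counts. Capitals mark CCAAT (a box bound by NF-Y), TATAAA (the TATA box) and AGGTCA (the half-site of nuclear receptors such as the retinoic acid receptors), searched on both strands. The windows are chr6:52234940-52235189 on the minus strand (Hoxa10, inner start) and chr6:52240855-52241104 on the minus strand (Hoxa10, outer start), chr6:52245811-52246060 on the minus strand (Hoxa11), chr2:74704365-74704614 on the plus strand (Hoxd8), chr2:74697513-74697762 on the plus strand (Hoxd9) and chr15:103034145-103034394 on the plus strand (Hoxc4).
Hoxa10 inner start: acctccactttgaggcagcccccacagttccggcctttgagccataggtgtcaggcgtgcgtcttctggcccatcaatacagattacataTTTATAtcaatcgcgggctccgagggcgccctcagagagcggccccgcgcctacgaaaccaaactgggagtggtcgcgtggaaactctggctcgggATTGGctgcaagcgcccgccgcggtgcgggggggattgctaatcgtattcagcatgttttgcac
Hoxa10 outer start: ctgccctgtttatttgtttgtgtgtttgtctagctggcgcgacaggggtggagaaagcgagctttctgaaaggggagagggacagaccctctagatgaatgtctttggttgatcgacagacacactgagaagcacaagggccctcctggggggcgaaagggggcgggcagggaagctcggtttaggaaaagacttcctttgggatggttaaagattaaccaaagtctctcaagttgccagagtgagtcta
Hoxa11: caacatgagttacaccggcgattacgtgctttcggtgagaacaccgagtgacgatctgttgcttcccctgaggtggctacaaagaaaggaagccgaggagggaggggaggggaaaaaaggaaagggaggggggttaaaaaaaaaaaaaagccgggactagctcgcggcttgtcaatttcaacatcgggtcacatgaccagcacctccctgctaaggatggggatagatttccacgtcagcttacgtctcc
Hoxd8: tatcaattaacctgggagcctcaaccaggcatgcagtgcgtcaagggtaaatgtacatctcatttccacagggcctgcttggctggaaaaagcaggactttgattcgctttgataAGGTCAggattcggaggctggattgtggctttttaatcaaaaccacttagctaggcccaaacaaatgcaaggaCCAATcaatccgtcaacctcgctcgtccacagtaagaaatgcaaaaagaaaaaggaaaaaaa
Hoxd9: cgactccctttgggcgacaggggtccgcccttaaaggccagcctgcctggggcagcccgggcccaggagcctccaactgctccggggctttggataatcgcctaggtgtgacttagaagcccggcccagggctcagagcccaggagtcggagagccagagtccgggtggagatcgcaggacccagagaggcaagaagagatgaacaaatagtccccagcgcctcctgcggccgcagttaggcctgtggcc
Hoxc4: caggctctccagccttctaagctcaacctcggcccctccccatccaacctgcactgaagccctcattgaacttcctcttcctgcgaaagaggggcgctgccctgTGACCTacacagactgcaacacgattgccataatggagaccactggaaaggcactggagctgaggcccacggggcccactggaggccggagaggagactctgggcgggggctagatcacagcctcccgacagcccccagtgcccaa

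A RefSeq promoter window was matched for 21 of the 38 Hox genes, 23 windows in all. CCAAT stood in 13 of the 23 Hox windows, 4 of them of genes without a count (Hoxd1, Hoxd10, Hoxd12 and Hoxd13), and in 33.8% of all 32851 mouse windows of the same length. TATAAA stood in 3 Hox windows, the inner one of Hoxa10 and those of Hoxb8 and the uncounted Hoxd13, against 12.4% of all windows. AGGTCA stood in 5 Hox windows, those of Hoxc4, Hoxd8, Hoxb4, Hoxd3 and Hoxd10, against 14.02% of all windows, and Hoxd10 had no count. CG pairs numbered 13 in Hoxa11 and 13 in Hoxd9, against 20 and 7 in the Hoxa10 windows and 6 in Hoxd8, with a median of 6 over all windows. Hoxc4 had 8. GENCODE starts Hoxc4 upstream of the RefSeq window, at 103018934, so this window belongs to the RefSeq start only. A match of letters is a description and not a bound site.

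The cells carried a partial Hox pattern. Of the 38 genes, 16 reached 50 counts in at least 1 library, 4 reached 10 to 49, 9 had 1 to 9 counts and 9 had none at all. The genes without any count were Hoxb13, Hoxc11, Hoxc12, Hoxd1, Hoxd9, Hoxd10, Hoxd11, Hoxd12 and Hoxd13. These include Hoxd13, which patterns the digits, and Hoxb13, a gene of the tail bud and prostate. Both belong to group 13, whose genes mark the hindgut. Hoxc13, of the same group, had 2 counts in M8 and 0 in M32, M83 and control. Levels between genes are given in TPM (counts divided by the length of the gene's exons and scaled to a common total), and 12, 19 and 17 Hox genes were at 1 TPM or more in M8, M32 and M83, against 15 in control. The number at that level in all 4 libraries was 12.

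**Figure D1:**
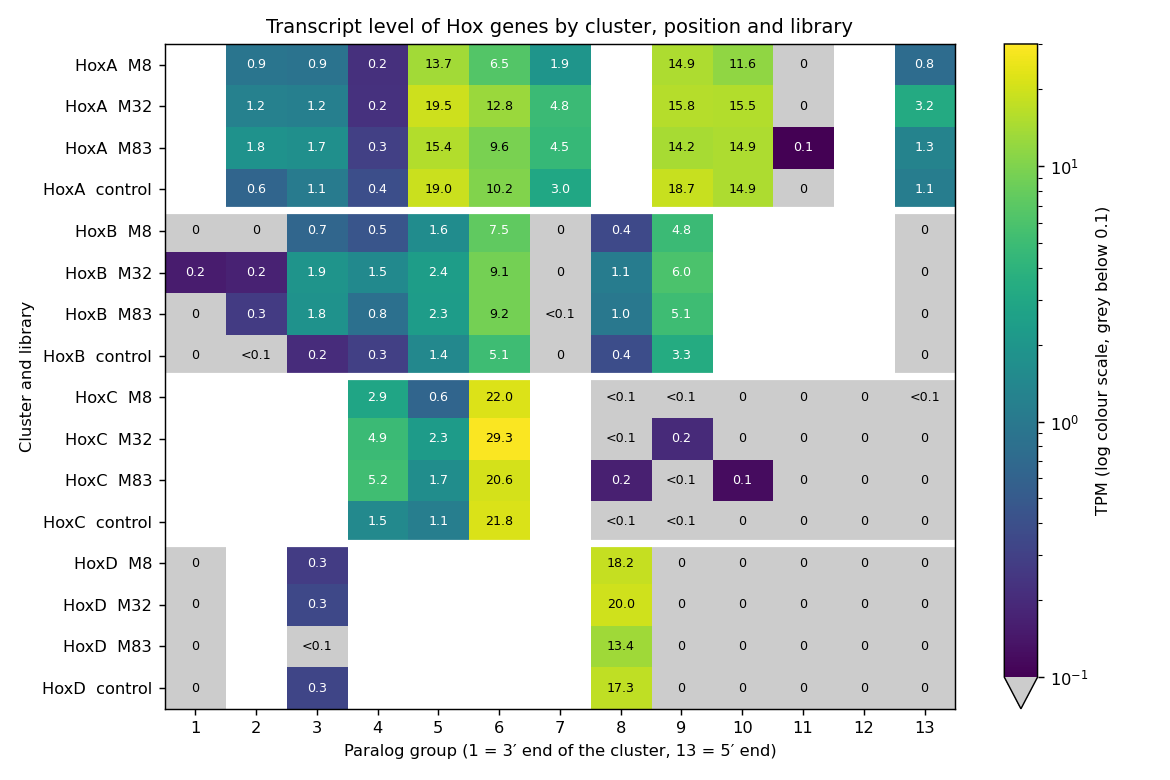
Level of the Hox genes shown in TPM (colour on a log scale, value printed in each cell), with paralog group on the horizontal axis and cluster and library on the vertical axis. Grey cells are below 0.1 TPM or at 0, blank positions are not plotted, and the 5 highest levels in each of the 4 libraries sit in groups 5, 9 and 10 of HoxA, group 6 of HoxC and group 8 of HoxD.

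Hoxc6, which shapes forelimb-level motor neurons, had the highest mean level of the 38 genes, with 22.0 TPM in M8, 29.3 in M32 and 20.6 in M83, against 21.8 in control. Hoxd8 followed with 18.2, 20.04 and 13.4 TPM in M8, M32 and M83, against 17.3 in control. Hoxa5, which is required for lung and gut mesenchyme, had 13.7, 19.5 and 15.4 TPM in M8, M32 and M83, against 19.0 in control. These neighbours in the order overlapped between libraries. Hoxa9, a regulator of blood progenitors that is often raised in leukaemia, had 14.9, 15.8 and 14.2 TPM in M8, M32 and M83, against 18.7 in control. Hoxa10, needed for the uterus and the lumbar vertebrae, had 11.6, 15.5 and 14.9 TPM in the same lines, against 14.9 in control. The order among Hoxd8, Hoxa5, Hoxa9 and Hoxa10 depended on the length used: with the longest transcript in place of all exons, Hoxa9 took the second place and Hoxa5 the fifth, while Hoxc6 stayed first. Hoxa6 (6.52, 12.8 and 9.58 TPM in M8, M32 and M83, against 10.2 in control) and Hoxb6 (7.46, 9.09 and 9.18 TPM, against 5.06 in control) came next.

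The transcribed stretch of each cluster ended at a different place. In HoxA, which lies at chr6:52155590-52260880 on the minus strand and spans 105.3 kb, Hoxa10 had 326, 422 and 419 counts in M8, M32 and M83, against 387 in control. The next gene, Hoxa11, has its 3′ end 1.3 kb from Hoxa10 and had 0, 0 and 2 counts in M8, M32 and M83, against 0 in control. Hoxa11, which patterns the forearm and kidney, was thus at the limit of detection in every library. Beyond it, after a gap of 11.9 kb, Hoxa13, a gene of the hindgut and the limb tip, was detected again, with 16, 67 and 27 counts in M8, M32 and M83, against 22 in control. Hoxa13 was the only gene of groups 11 to 13 in any cluster with more than 2 counts in a library. The 9 genes of these groups together had 18, 67 and 29 counts in M8, M32 and M83, against 22 in control.

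HoxD, at chr2:74668310-74765142 on the plus strand, had nearly all counts of the selected rows in a single gene. Hoxd8 had 430, 459 and 316 counts in M8, M32 and M83, against 377 in control, which was 97.7%, 97.5% and 99.4% of the counts of the 8 HoxD rows in the lines, against 97.2% in control. Hoxd9 ends 4.4 kb before the start of Hoxd8, and the 5 genes of groups 9 to 13 summed to 0 counts over the 4 libraries. Hoxd3 had 10, 12 and 2 counts in M8, M32 and M83, against 11 in control, and 62.9% of its exonic bases are overlapped by other annotated genes. HoxC, at chr15:102921103-103036852 on the plus strand, had its counts in Hoxc4, Hoxc5 and Hoxc6, and its groups 8 to 13 totalled 22 counts, with at most 4 in any library. HoxB, at chr11:96194316-96368256 on the plus strand, had most of its counts between Hoxb3 and Hoxb9. Hoxb1 had 3 counts in M32 and none elsewhere, Hoxb2 had 0, 5 and 8 counts in M8, M32 and M83, against 2 in control, and Hoxb7 had 1 count in M83 and none elsewhere. Hoxb13, without a count, lies 74 kb beyond Hoxb9.

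The rows just outside the naming rule are both called Hoxd4 with a suffix. Hoxd4_1 had 9, 26 and 37 counts in M8, M32 and M83, against 20 in control. Hoxd4_2, an identifier that GENCODE vM21 does not hold, had 22, 19 and 24 counts in M8, M32 and M83, against 0 in control. Summed, they had 31, 45 and 61 counts in M8, M32 and M83, against 20 in control. With both rows added to HoxD, Hoxd8 made up 91.3%, 88.95% and 83.4% of its counts in M8, M32 and M83, against 92.4% in control, and the ratio of HoxD to control was 1.03 (0.904 to 1.18), 1.19 (1.04 to 1.36) and 0.820 (0.711 to 0.945). How reads were shared between these rows is not stated.

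The lines were then set against control to ask which Hox genes differed between each line and control. Whether mutagenesis caused a difference was not tested, since each line and the control is 1 column. HoxB had the most genes above control in all 3 lines, 5 of the 7 in any cluster, and Hoxc4 was the one gene of HoxC that was higher in all 3, while HoxA was lower in M8 and HoxD lower in M83. No Hox gene passed the test across the lines. With edgeR's quasi-likelihood F-test on 13576 genes, 0 of the 20 Hox genes that passed the filter on low counts had an adjusted p under 0.05, against 0.00737% of all genes tested (1 gene). At an unadjusted p under 0.05, Hoxb3 and Hoxc4 were higher in the lines (2 of 20, against 2.8% of all genes) and 0 were lower (against 0.501%). DESeq2 also called 0 of the 19 Hox genes it adjusted, against 0.318% of all genes, and had the same 2 genes at an unadjusted p under 0.05 (2.38% of all genes were higher and 0.235% lower). The fit has 2 residual degrees of freedom, and its p-values measure only the spread between lines that are different mutants, with the lone control assumed to vary like them. Ratios are therefore given with exact 95% Clopper-Pearson intervals, which cover counting error only, since each line and the control is 1 library. The reads also have no molecular identifiers, so even the counting error may be larger than these intervals show.

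By a rule of size, a gene was called in a line when it was at least 4-fold from control on the log2 scale with a prior count of 2, had at least 50 counts in the higher library and had an interval that left out 2-fold. In M8, 0 of 11 Hox genes with enough counts were called higher (0.795% of all genes) and 0 lower (0.564%). In M32, 1 of 15 was called higher (1.13%) and 0 lower (0.277%), and in M83, 1 of 14 was called higher (1.08%) and 0 lower (0.275%). The gene was Hoxb3 both times. None of 16 Hox genes lay 4-fold above every other library (0.475% of all genes) or 4-fold below (1.06%). Among the 20 tested Hox genes, 7 were above control in all 3 lines (23.3% of all genes), namely Hoxa2, Hoxb3, Hoxb4, Hoxb5, Hoxb6, Hoxb9 and Hoxc4, and 1, Hoxa9, was below in all 3 (21.3% of all genes). Since a gene could pass the filter through 1 library, these counts were also taken over the 29 Hox genes with any count, where 7 were above (18% of all genes with any count) and 2 below (22.2%).

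**Figure D2:**
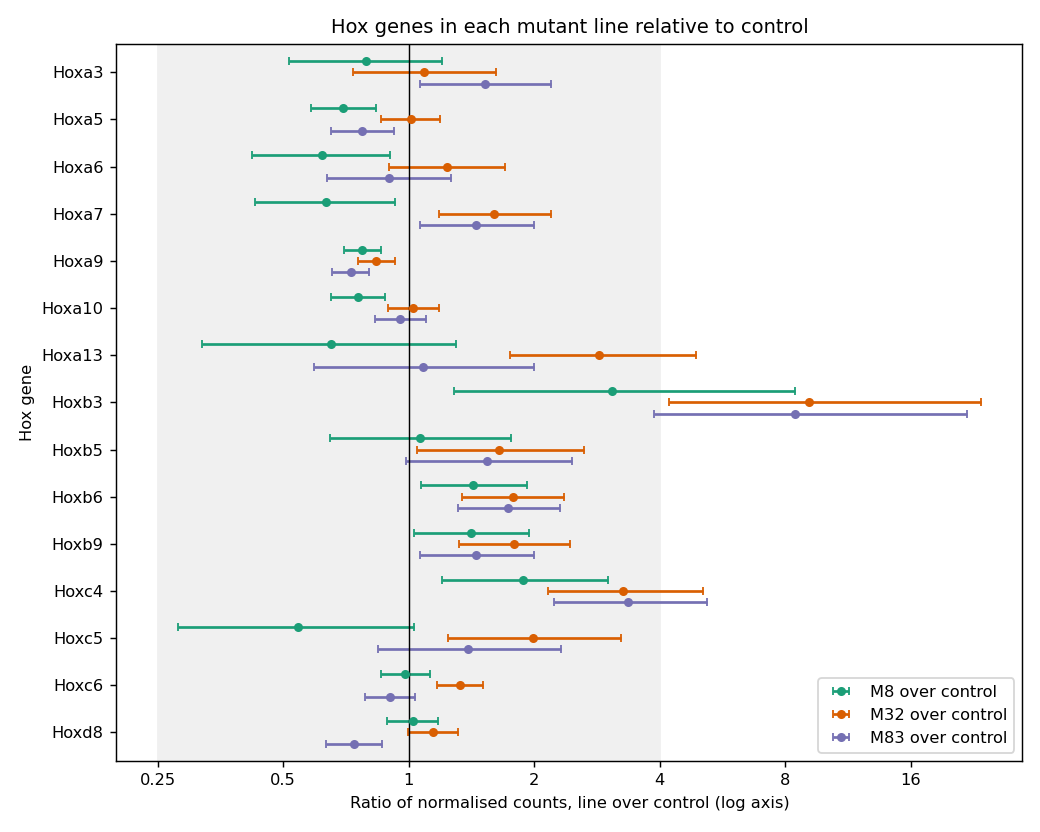
Ratio of normalised counts, each line over control, for Hox genes with at least 50 counts in their highest library (log axis, bars are exact 95% intervals of counting error, the shaded band is within 4-fold of control). Hoxb3 lies beyond the band in M32 and M83, Hoxc4 lies to the right of 1 in all 3 lines, and Hoxa9 to the left of 1 in all 3.

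Hoxb3, which acts in the hindbrain and in blood progenitors, had 24, 68 and 67 counts in M8, M32 and M83, against 7 in control. All 3 lines were above control, and M8 was the lowest of them. The ratio to control was 3.07 in M8 (1.28 to 8.44), 9.14 in M32 (4.20 to 23.6) and 8.45 in M83 (3.88 to 21.8). The fitted log2 difference was 2.76 (SE 0.977, unadjusted p = 0.0273, adjusted p = 1.00 by edgeR). In TPM, Hoxb3 stayed low, at 0.657, 1.92 and 1.83 in M8, M32 and M83, against 0.207 in control. Of its exonic bases, 52.9% overlap the antisense gene Hoxb3os, and the strand setting of the counting is not given, so reads of the pair cannot be told apart. The row of Hoxb3os itself had 8 counts in M8 and 0 in M32, M83 and control.

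Hoxc4 had 63, 104 and 114 counts in M8, M32 and M83, against 30 in control. The lines did not overlap control, and M32 and M83 were close together above M8. The ratio was 1.88 in M8 (1.20 to 3.01), 3.26 in M32 (2.16 to 5.07) and 3.35 in M83 (2.23 to 5.19), with a fitted log2 difference of 1.498 (SE 0.613, unadjusted p = 0.0468, adjusted p = 1.00 by edgeR). Its level averaged 4.29 ± 1.25 TPM in the lines (SD, n = 3), against 1.47 TPM in control. No other annotated gene overlaps its exons.

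Hoxb6, Hoxb9, Hoxb5 and Hoxb4 were also above control in all 3 lines. Hoxb6 had 126, 149 and 155 counts in M8, M32 and M83, against 79 in control, and ratios of 1.43 (1.07 to 1.92), 1.77 (1.34 to 2.36) and 1.73 (1.31 to 2.30). Hoxb9 had 107, 129 and 112 counts in M8, M32 and M83, against 68 in control, and ratios of 1.41 (1.03 to 1.94), 1.79 (1.32 to 2.43) and 1.45 (1.07 to 1.99). In both genes every line was above control and every interval left out 1. Their fitted log2 differences were 0.72 (SE 0.426) for Hoxb6 and 0.63 (SE 0.456) for Hoxb9, both with an adjusted p of 1.00 by edgeR. Hoxb5, which acts in the enteric nervous system, had 38, 56 and 56 counts in M8, M32 and M83, against 32 in control, and the interval left out 1 in M32 alone (ratio 1.65, 1.05 to 2.63). Hoxb4, which acts in blood stem cells, had 10, 32 and 18 counts in M8, M32 and M83, against 6 in control, and ratios of 1.49 (0.492 to 5.0003), 5.02 (2.07 to 14.7) and 2.65 (1.01 to 8.15). Hoxb8 had 8, 24 and 22 counts in M8, M32 and M83, against 8 in control, so M8 did not stand above control (ratio 0.896, 0.293 to 2.74) while M32 and M83 did (2.82, 1.23 to 7.27, and 2.43, 1.04 to 6.30).

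Summed over its 10 genes, HoxB had 313, 466 and 439 counts in M8, M32 and M83, against 202 in control. The lines lay above control, with ratios of 1.39 (1.16 to 1.67), 2.17 (1.84 to 2.57) and 1.92 (1.62 to 2.28). Without Hoxb3 the HoxB ratios were 1.33 (1.10 to 1.60), 1.92 (1.61 to 2.29) and 1.68 (1.41 to 2.01), so the difference did not rest on Hoxb3. As a share of all Hox counts, HoxB was 11.3% (10.2 to 12.5) in M8, 13.1% (12.0 to 14.3) in M32 and 14.2% (12.97 to 15.5) in M83, against 7.1% (6.2 to 8.1) in control. The median fitted log2 difference was 0.87 over the 6 HoxB genes tested, against 0.02 over all genes tested, and -0.13, 0.38 and -0.31 in HoxA, HoxC and HoxD. Of these 6 genes, Hoxb3, Hoxb4 and Hoxb8 had only 7, 6 and 8 counts in control. A gene could pass the filter through 1 library, so genes low in control could enter through the lines and raise the HoxB median. That median is therefore a description and not added support for a HoxB difference.

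**Figure D3:**
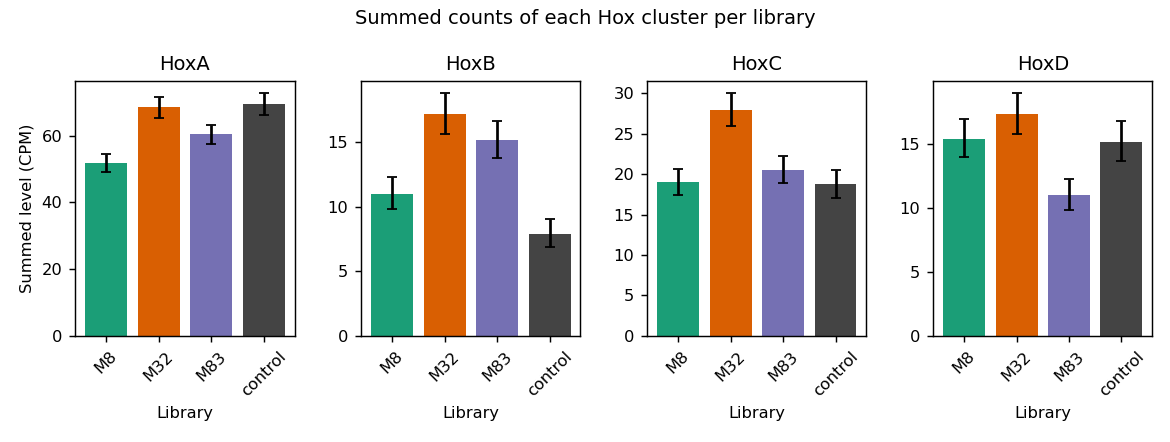
Summed level of each Hox cluster in CPM, 1 panel per cluster with its own axis from 0, 1 bar per library, and bars of exact 95% Poisson intervals of counting error. HoxB stands at 10.99, 17.2 and 15.2 CPM in M8, M32 and M83, above the 7.91 CPM of control, while HoxA reaches 51.8 CPM in M8, below the 69.4 CPM of control.

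HoxA was the largest cluster by counts, with 1474, 1858 and 1746 in M8, M32 and M83, against 1772 in control. M8 was the lowest library, at a ratio of 0.745 (0.695 to 0.799), M83 was at 0.869 (0.813 to 0.929), and M32 at 0.986 (0.924 to 1.05) overlapped control. Of the 9 HoxA genes tested, 8 were below control in M8 (47.4% of all genes were lower in M8), against 2 in M32 (50.1% of all genes) and 4 in M83 (49% of all genes). The remaining gene in M8 was Hoxa2, which patterns the second pharyngeal arch, with 14, 18 and 28 counts in M8, M32 and M83, against 9 in control. Without Hoxa9, the HoxA ratio was 0.720 (0.654 to 0.793) in M8, 1.12 (1.02 to 1.22) in M32 and 0.996 (0.911 to 1.09) in M83, so the lower M83 total rested on Hoxa9.

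Hoxa9 had 717, 738 and 683 counts in M8, M32 and M83, against 830 in control. It was below control in all 3 lines, at ratios of 0.774 (0.700 to 0.857), 0.836 (0.756 to 0.925) and 0.726 (0.655 to 0.804). Its fitted log2 difference was -0.36 (SE 0.231, adjusted p = 1.00 by edgeR). Hoxa5 had 221, 305 and 249 counts in M8, M32 and M83, against 284 in control, so M8 and M83 were below control while M32 was not. Hoxa6 had 49, 93 and 72 counts in M8, M32 and M83, against 71 in control, at ratios of 0.618 (0.421 to 0.903), 1.23 (0.895 to 1.70) and 0.895 (0.636 to 1.26). Hoxa7 had 48, 116 and 112 counts in M8, M32 and M83, against 68 in control. For Hoxa7 the lines lay on both sides of control, at ratios of 0.633 (0.428 to 0.929), 1.60 (1.18 to 2.20) and 1.45 (1.07 to 1.99), and 20.4% of its exonic bases overlap the antisense gene Hoxaas3. Towards the 3′ end, Hoxa3, needed for the thymus and parathyroid, had 45, 59 and 88 counts in M8, M32 and M83, against 51 in control. M83 was the highest library for Hoxa3, with a ratio over control of 1.52 (1.07 to 2.19).

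Among the 16 Hox genes with at least 50 counts, the largest ratios between lines were those of Hoxa13, Hoxc5 and Hoxb3. Hoxa13 was 4.40-fold higher in M32 than in M8 (2.52 to 8.13), 2.87-fold above control in M32 (1.75 to 4.87), and at ratios of 0.652 (0.320 to 1.30) in M8 and 1.08 (0.594 to 2.00) in M83. Hoxc5 had 17, 59 and 44 counts in M8, M32 and M83, against 28 in control, and was 3.64-fold higher in M32 than in M8 (2.10 to 6.67). Hoxb3 was 2.97-fold higher in M32 than in M8 (1.84 to 4.95) and 2.75-fold higher in M83 than in M8 (1.70 to 4.58). Of these genes, Hoxb3 alone had M8 above control with an interval that left out 1. Hoxd8 was below control in M83 alone, at ratios over control of 1.02 (0.888 to 1.18) in M8, 1.15 (0.997 to 1.32) in M32 and 0.740 (0.635 to 0.861) in M83. Hoxc6 had 456, 589 and 427 counts in M8, M32 and M83, against 417 in control. Its ratios were 0.980 (0.856 to 1.12), 1.33 (1.17 to 1.51) and 0.904 (0.788 to 1.04), so its interval left out 1 in M32 alone. With Hoxc4 left out, HoxC was at ratios of 0.956 (0.839 to 1.09), 1.37 (1.22 to 1.55) and 0.943 (0.828 to 1.08) in M8, M32 and M83. Over all 38 genes, M32 had the most Hox counts, 3553, beside 2768 in M8 and 3096 in M83, against 2840 in control. Normalised, the ratios to control were 0.873 (0.829 to 0.921) in M8, 1.18 (1.12 to 1.24) in M32 and 0.962 (0.914 to 1.01) in M83.

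The genes that flank the clusters, and some annotated inside them, were compared by their distance. Of 12 tested protein-coding genes within 500 kb of HoxB, 3 were above control in all 3 lines (23.3% of all genes) and 1 was below (21.3%), with a median fitted log2 difference of 0.08. Copz2, 481.6 kb from HoxB, had 317, 608 and 428 counts in M8, M32 and M83, against 146 in control, and was above control in every line. Its fitted log2 difference was 1.49 (SE 0.471), beside 1.498 for Hoxc4 and 2.76 for Hoxb3. Nfe2l1, a transcription factor 449.2 kb from HoxB, had 7433, 7624 and 7575 counts in M8, M32 and M83, against 4837 in control (fitted log2 difference 0.50, SE 0.215). Neither passed the test by edgeR (adjusted p = 1.00 for both). Near HoxC, 15 genes were tested, with 2 above control in all 3 lines, 2 below and a median of -0.03. Calcoco1 had 558, 663 and 562 counts in M8, M32 and M83, against 293 in control, with a fitted log2 difference of 0.88 (SE 0.292). Prr13 had 1976, 1485 and 3245, against 1415, at log2 ratios of 0.32, -0.02 and 1.02. Pcbp2 (22314, 39226 and 19913 counts, against 32478) and Atp5g2 (3296, 6730 and 4366, against 6101) were below control in M8 and M83. So was Igf2bp1 near HoxB (1313, 2092 and 1379, against 1473). Near HoxA, 1 of 5 tested genes was above in all 3 lines and 2 were below. The 2 below, Gm28308 and 5730596B20Rik, lie inside the cluster (0 kb) and overlap exons of Hoxa3, so they are not flanking genes. Near HoxD, 1 of 3 was above and 0 below, and the gene above, Gm28230, also lies inside its cluster (0 kb) and overlaps exons of Hoxd3. Evx1 and Evx2, the homeobox genes that adjoin the 5′ ends of HoxA and HoxD, had no count in any library. The median log2 ratio of all tested genes on chromosome 11, which carries HoxB, was 0.01, -0.03 and 0.12 in M8, M32 and M83. It was 0.20, 0.11 and -0.19 on chromosome 15 (HoxC), -0.05, -0.24 and 0.07 on chromosome 6 (HoxA), and 0.03, -0.02 and 0.02 on chromosome 2 (HoxD), in the same order.

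The cofactors and chromatin regulators of Hox genes were counted the same way, beside shares over all genes of 23.3% above control in all 3 lines and 21.3% below. Of 8 tested TALE genes, 2 were above and 0 below, with a median fitted log2 difference of 0.01. Meis3 had 467, 607 and 673 counts in M8, M32 and M83, against 578 in control, at log2 ratios of -0.46, -0.02 and 0.04. Meis1, a partner of Hoxa9 in leukaemia, had 1 count in M8 and 0 in M32, M83 and control. Of 12 tested genes of Polycomb complex PRC2, which methylates histone H3 at silent Hox genes, 3 were above and 6 below control in all 3 lines, with a median of -0.10. Its enzyme Ezh2 had 2498, 2939 and 2707 counts in M8, M32 and M83, against 3013 in control. The PRC1 list had 3 above and 6 below of 20 tested, with a median of -0.05, and the list of Trithorax genes and Dot1l had 2 above and 6 below of 20, also with a median of -0.05. The demethylase Kdm6b, which removes the Polycomb mark, had 582, 559 and 889 counts in M8, M32 and M83, against 881 in control. Normalised, it was below control in all 3 lines, at log2 ratios of -0.75, -0.74 and -0.17. The 8 architecture genes, such as the insulator protein gene Ctcf, had 1 above and 1 below. In these lists 0 genes passed by edgeR's or DESeq2's adjusted p, and 0 had an unadjusted p under 0.05 by edgeR.

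Of 11 tested genes of the retinoic acid list, 7 were above control in all 3 lines (23.3% of all genes) and 0 below (21.3%), with a median fitted log2 difference of 1.08, beside 0.02 over all genes. Aldh1a1, which makes retinoic acid from retinaldehyde, had 539, 594 and 210 counts in M8, M32 and M83, against 20 in control. Crabp2, which carries retinoic acid to its receptors, had 175, 250 and 254 counts in M8, M32 and M83, against 36 in control. Cyp26b1, which breaks retinoic acid down, had 343, 433 and 406 counts in M8, M32 and M83, against 128 in control. These 3 genes and the receptor gene Rarb (60, 70 and 65 counts in M8, M32 and M83, against 20 in control) were above control in every line. Their fitted log2 differences were 4.35 for Aldh1a1 (SE 0.814), 2.51 for Crabp2 (SE 0.483), 1.48 for Cyp26b1 (SE 0.346) and 1.55 for Rarb (SE 0.608), each with an adjusted p of 1.00 by edgeR. DESeq2 called 2 genes of the list, Aldh1a1 and Crabp2, at an adjusted p under 0.05 (0.318% of all genes). Aldh1a2, the main retinoic acid enzyme of the embryo, had no count. The list was chosen with earlier results of these data known, and its part in the Hox differences was not tested.

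**Figure D4:**
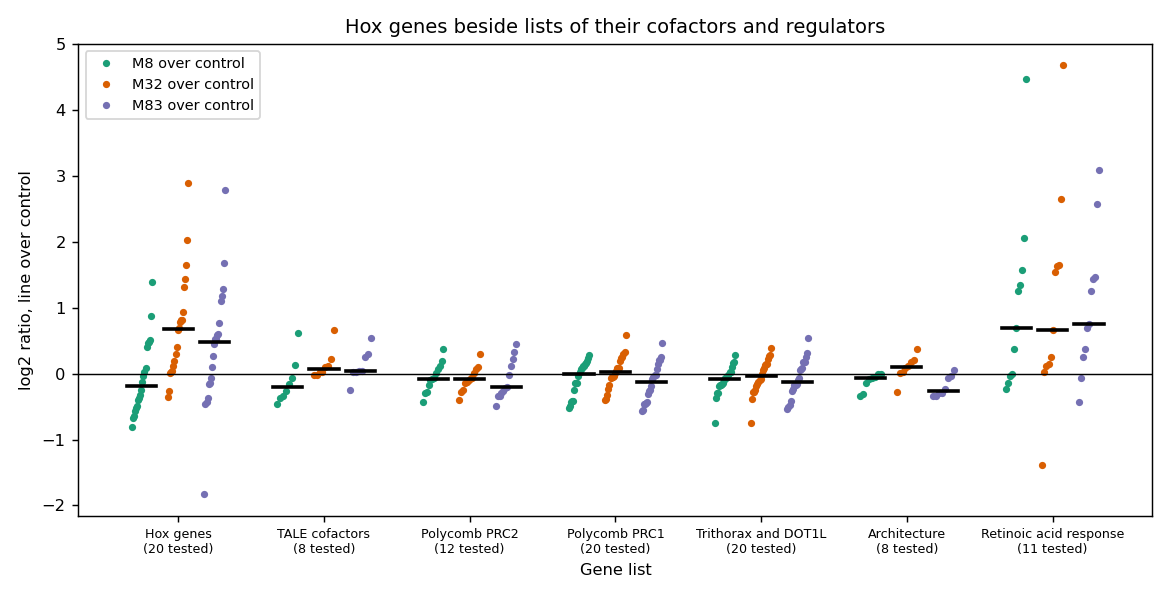
log2 ratio of each tested gene, line over control, for the Hox genes and 6 lists of their cofactors and regulators (1 point per gene and line, black bars are medians). The retinoic acid list has medians of 0.70, 0.66 and 0.76 in M8, M32 and M83, while the PRC2 list has medians of -0.07, -0.08 and -0.20.

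Genes that mark position or limb and gut mesenchyme beside the Hox genes had 7 tested members of 23 listed, with 1 above control in all 3 lines (23.3% of all genes) and 0 below (21.3%). Pax9, which is active in pharyngeal pouches, limbs and vertebral precursors, had 6, 106 and 188 counts in M8, M32 and M83, against 97 in control. It was lowest in M8, the library in which HoxA was lowest too. Foxf1, a gene of gut mesenchyme, had 3037, 4765 and 4935 counts in M8, M32 and M83, against 3381 in control. Of the ParaHox genes, the sister cluster of Hox, Pdx1, which defines pancreas and duodenum, had 323, 272 and 324 counts in M8, M32 and M83, against 218 in control. Among the 16 listed noncoding RNAs of the Hox clusters that had a row, only Hotairm1, transcribed from the HoxA cluster, reached 50 counts. It had 85, 63 and 119 counts in M8, M32 and M83, against 64 in control. Noncoding RNAs of the clusters outside the list were not examined here. Of the 10 mesenchyme markers, 5 were above control in all 3 lines (23.3% of all genes) and 1 below (21.3%). The collagen genes of the list were mixed: Col1a1 had 25288, 33405 and 32552 counts in M8, M32 and M83, against 10970 in control, while Col1a2 had 52481, 51697 and 43937 counts, against 43464 in control, and a log2 ratio of -0.16 in M83. Of the 10, edgeR passed 0 and DESeq2 passed 2, Col1a1 and Col6a2 (0.318% of all genes). Their part in the HoxB difference was not tested.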

How the data were processed

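The deposited table holds raw, whole-number counts for each gene, 1 column per sample, per the file headers. RNA came from RNeasy Micro columns, and libraries from NEBNext Poly(A) selection and the Ultra II kit, per the labels' protocols. The submitters' processing notes name GRCm38. Not given in the sources used here were the aligner, counting tool, annotation and strand setting. Of the row identifiers, 41434 were found in GENCODE vM21, including all 38 Hox genes, and 20208 rows had no count.

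The mutant lines were compared with control by edgeR 4.0.16 in R 4.3.3 (TMM factors, filterByExpr, quasi-likelihood F-test, Benjamini-Hochberg adjusted p under 0.05), checked on simulated data, with DESeq2 1.42.0 as the alternative. Because the smallest group has 1 sample, filterByExpr keeps a gene that passes in 1 library. CPM uses TMM-scaled library sizes, and TPM uses the union of GENCODE exons. TMM factors were 0.986, 0.993, 1.03 and 0.989 in M8, M32, M83 and control. Every Hox gene with at least 50 counts in its highest library was named, except an item that is not reported here, and from other lists and from flanking genes up to 4 with the widest range. Meis1, Aldh1a2, Evx1, Evx2, Hoxb3os, Hoxb4 and other genes named outside this rule were chosen after their values were seen. The Hox genes, lists and rules were chosen with earlier results of these data known.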

Additional observations from a re-analysis of the deposited data

How the results depend on the processing

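No Hox gene passed edgeR's adjusted threshold with DESeq2 size factors, with library size alone, without the low-count filter, or with M8, M32 or M83 left out in turn (0 in each direction, range 0 to 0), nor with DESeq2. Of 58 alternatives for the counts reported, 52 gave a count within 1.5 times the reported one. Most of these set a count of 0 beside a reported count of 0, so they say little about the genes that were called. In M32, a minimum of 20 counts gave 2 Hox genes called higher (Hoxb4 joined Hoxb3), and a 2-fold rule gave 3 (Hoxa13, Hoxb3 and Hoxc4). In M83, the 2-fold rule gave 2 (Hoxb3 and Hoxc4). At 2-fold, 1 gene stood above every other library (Hoxa13, in M32) and 1 below (Hoxb3, in control). Without the filter, 2 genes were below control in every line (Hoxa4, which had at most 5 counts, and Hoxa9). These settings are looser by construction. Over the settings tried for the fitted log2 difference, each line left out included, Hoxb3 ranged between 2.48 and 3.11, Hoxc4 between 1.35 and 1.72, Hoxb6 between 0.63 and 0.81, Hoxb9 between 0.49 and 0.69, and Hoxa9 between -0.44 and -0.33. Hoxa3, Hoxa6, Hoxa13, Hoxc5, Hoxc6 and Hoxd8 changed sign. Scaling by library size alone or by DESeq2 factors, added after the data were seen, kept the direction of every cluster total, with HoxB between 0.47 and 1.12 (log2) over the 3 lines. No paired analysis was possible because the control is 1 sample and shares no more than 1 replicate number with the lines.

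The single control column and the absence of separate repeats limit every comparison, and the low levels of Hoxb3, Hoxb4 and Hoxa13 limit theirs further.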
